A study of Mus musculus with 16 samples.

Results

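The effect of losing Erk2 on gene expression in the embryonic mouse palate was compared between 2 embryonic days. For each gene the genotype effect was the mutant mean minus the control mean on the log2 scale, and the quantity examined here was the E14.5 effect minus the E13.5 effect, called the stage difference. A positive stage difference means that mutants stood higher against their controls at E14.5 than at E13.5. All 16 arrays of the series entered, and 8662 of 18194 measured genes qualified, because their mean reached log2 4 in at least 1 genotype group of each stage. Mutants were Erk2 fl/fl; Wnt1-Cre and controls were Erk2 fl/fl without Cre, all on the C57BL/6J strain, so every embryo carried the floxed alleles. Palate mesenchyme was sampled at E13.5 from 3 mutants and 3 controls, and at E14.5 from 5 mutants and 5 controls. The E14.5 arrays carried a batch label, with replicates 1 and 2 of each genotype in batch 1 and replicates 3 to 5 in batch 2, and the E13.5 arrays carried none. The number of embryos behind an array is not stated in the labels, so the p-values reflect only how far these arrays spread, which may be technical. The labels describe the source both as primary mesenchymal cells and as tissue of the palate mesenchyme.

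Erk2 is a terminal kinase of the RAS, RAF and MEK cascade, which carries signals from growth factor receptors to transcription factors, and its close relative Erk1 remains in these mutants. Activated ERK induces its own inhibitors, among them the Sprouty and Spred proteins and dual-specificity phosphatases, so transcripts of these genes are common readouts of the pathway. Palatal shelves are a core of mesenchyme, largely of neural crest origin, under an epithelial sheet. They grow beside the tongue, then lift and fuse in the midline during the days sampled here. Wnt1-Cre is active in the neural crest lineage, so the palatal epithelium, blood vessels and muscle fibres keep Erk2. RNA of the targeted gene was not analysed here, so the deletion has no check in these data.

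Transcripts of mesenchyme were present in every array, which does not show that the arrays held mesenchyme alone. The epithelial genes Krt14 and Perp were also above log2 4 in all of them. Mesenchymal genes such as Prrx1, Twist1, Pdgfra, Msx1, Shox2, Vim and Col3a1 were above log2 4 in every array, the lowest being Osr2 with 4.47 to 6.42. The median signal of an array lay at 3.39 to 3.44 for E13.5 and at 1.63 to 1.66 for E14.5, so levels were compared only within a stage. Whether the stages were normalized together or in separate runs is not given in the sources used here, and this bears on every stage difference. The E13.5 arrays had an interquartile range over the 8662 genes of 1.98 to 2.07, and the E14.5 arrays of 2.44 to 2.51. Arrays of a group correlated at 0.990 to 0.996, and no pair was identical. Sex-linked transcripts marked all 6 E13.5 arrays as female, against 3 of 5 mutants and 1 of 5 controls at E14.5. When the fit included sex for the E14.5 arrays, 4 of the 11 genes described below, Commd9, Cwc22, Depdc7 and Socs3, no longer passed for the stage difference (all at a limma adjusted p of 0.062). The difference in signal between the 5′ and 3′ ends of beta-actin, an RNA quality measure, spanned −1.34 to −0.98 in the E13.5 arrays and −1.61 to −1.06 in the E14.5 arrays.

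Few genes passed the test for a genotype effect that changed with stage. In 1 limma fit of all arrays, with batch within E14.5 as a term, the stage difference passed a Benjamini-Hochberg adjusted p of 0.05 for 11 genes (0.127% of 8662), of which 10 were more positive (0.115%) and 1 more negative (0.0115%) at E14.5. At an unadjusted p under 0.05 there were 827 genes (9.55%), 729 positive (8.42%) and 98 negative (1.13%). The fit called 9 genes at E13.5 (0.104%), 2 higher (0.0231%) and 7 lower (0.0808%) in mutants, and 232 at E14.5 (2.68%). A median gene's stage difference had an unadjusted 95% interval of ± 0.22. Passing the adjusted threshold took more. The smallest difference called was 0.48, for Socs3, and some larger ones, such as 1.06 for Frg1, did not pass. Few calls therefore do not show that few genes changed.

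Most genes leaned the same way. The stage difference was above 0 for 72.5% of genes, with a median of 0.06. At E13.5 only 28.3% of genes were higher in mutants, with a median effect of −0.05, and at E14.5 56.4% were, with a median of 0.01. This lean depended on the scaling: when arrays were centred on their medians 82.4% of stage differences were above 0 (median 0.10), and with quantile normalization of all arrays 56.8% were (median 0.02). Gene groups below are therefore set beside the 72.5% and the median of 0.06. Their counts at an unadjusted p under 0.05 are set beside 8.42% of all genes for positive and 1.13% for negative differences.

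**Figure D1:**
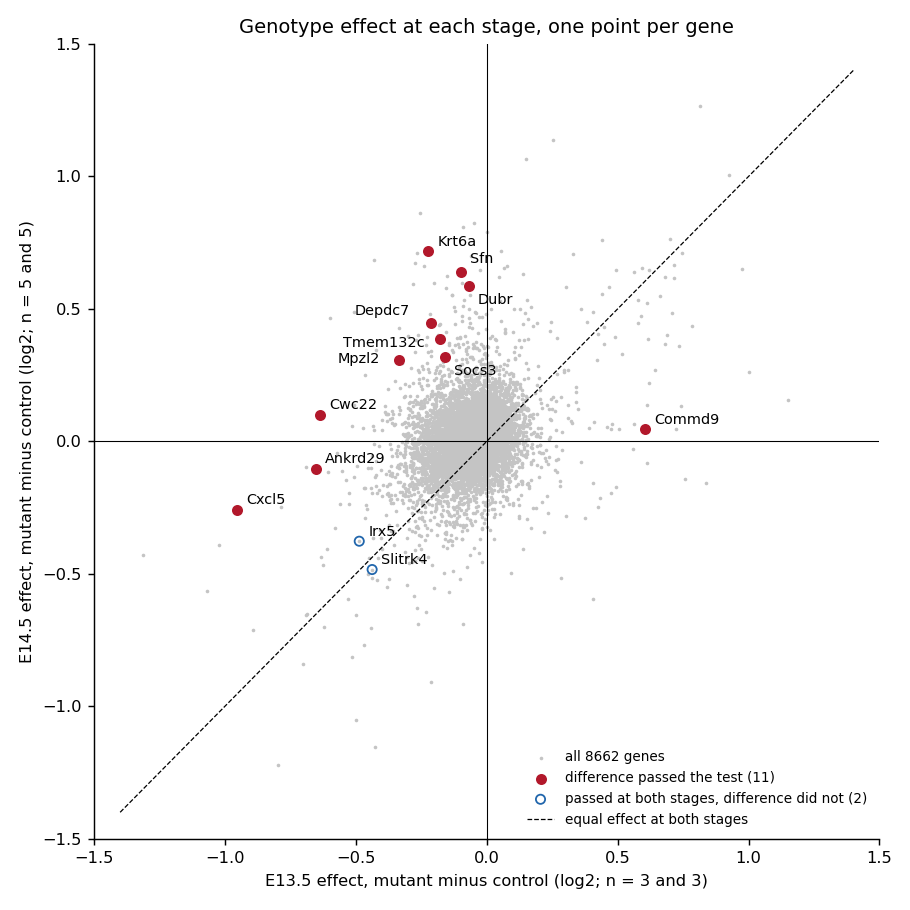
Genotype effect (mutant minus control, log2) at E13.5 on the horizontal axis and at E14.5 on the vertical axis, 1 point per gene for 8662 genes. Filled red points are the 11 genes whose stage difference passed, open blue circles are Irx5 and Slitrk4, which passed at both stages without a called difference, and the dashed line marks equal effects. The cloud lies slightly left of 0 at E13.5, 10 of the red points lie above the dashed line, and 4 genes fall outside the axes.

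The genotype effects of the stages were only loosely alike across genes, with a Pearson r of 0.32 and a Spearman rho of 0.25, which describe genes and not independent replicates. Of the 126 genes higher in mutants at E14.5 (1.45% of all), 49 (38.9%) were also above 0 at E13.5, where 28.3% of all genes were. Their median effect was 0.36 at E14.5 and −0.03 at E13.5. Of the 106 genes lower in mutants at E14.5 (1.22%), 97 (91.5%) were also below 0 at E13.5, where 71.7% of all genes were. Their median effect was −0.32 at E14.5 and −0.15 at E13.5. Among genes with a mean of at least 4 in all 4 groups, 113 were called higher and 98 lower at E14.5. For the other called genes, the direction at a stage with a group below 4 was a condition of entry. Among the 8662 genes, those with an unadjusted p under 0.05 at each stage numbered 156 with the same direction and 42 with opposite directions. Of the 156, 149 were lower in mutants, and of the 42, 36 were lower at E13.5 and higher at E14.5. Only 8 of the 232 genes called at E14.5 were called for the stage difference, and for 97 of them its 95% interval included 0.

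The 11 genes fell into 3 patterns. Krt6a, Sfn, Mpzl2, Dubr, Tmem132c, Depdc7 and Socs3 passed at E14.5 only, where all 7 were higher in mutants. Ankrd29, Cwc22 and Commd9 passed at E13.5 only, the first 2 lower and Commd9 higher in mutants. Cxcl5 was lower in mutants at both stages, and by less at E14.5. In the values that follow, E14.5 arrays are listed with the 2 arrays of batch 1 first.

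Krt6a encodes a keratin of stratified epithelia and had the largest stage difference of the 11. The E13.5 mutants had log2 values of 5.35, 5.33 and 5.03, and the controls 5.42, 5.35 and 5.61. At E14.5 they were 8.00, 7.86, 8.17, 7.97 and 8.39 in mutants and 7.47, 7.29, 7.39, 7.21 and 7.44 in controls. Every E14.5 mutant lay above every E14.5 control, while the E13.5 mutants lay just below the controls. The effect was −0.22 ± 0.12 (SE, n = 3 and 3) at E13.5 and 0.72 ± 0.09 (SE, n = 5 and 5) at E14.5, and the stage difference was 0.94 ± 0.16 (limma adjusted p = 0.037). Within E14.5 the effect was 0.55 in batch 1 and 0.83 in batch 2. The other probe sets of Krt6a gave stage differences of 0.83 and 0.54, and the near-identical paralogue Krt6b may share their signal.

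Sfn, which encodes the epithelial 14-3-3 protein stratifin, showed the pattern without any separation at E13.5. The E13.5 mutants had 4.94, 4.88 and 4.66, and the controls 4.84, 4.92 and 5.01. The E14.5 values were 4.84, 4.83, 4.90, 4.76 and 4.96 in mutants and 4.32, 4.26, 4.05, 4.28 and 4.19 in controls. Genotypes overlapped at E13.5 and were fully apart at E14.5. The effects were −0.10 ± 0.08 and 0.64 ± 0.07, a stage difference of 0.74 ± 0.11 (limma adjusted p = 0.015), and the E14.5 effect was 0.55 and 0.70 in the batches.

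Mpzl2 encodes an adhesion protein of the immunoglobulin family found in epithelia. Its mutant values at E13.5, 6.76, 6.67 and 6.76, were all below the control values of 7.06, 7.17 and 6.97. At E14.5 the mutant values, 7.99, 7.89, 8.00, 7.95 and 8.06, were all above the control values of 7.70, 7.75, 7.58, 7.65 and 7.68. The groups did not overlap at either stage and stood in opposite order. The effects were −0.33 ± 0.06, which did not pass at E13.5 (adjusted p = 0.074), and 0.31 ± 0.05, which did at E14.5 (adjusted p = 0.0061). Their difference was 0.64 ± 0.08 (limma adjusted p = 0.0073), with E14.5 effects of 0.21 and 0.37 in the batches, and the other probe sets of Mpzl2 gave 0.77 and, from a probe set mostly below the floor, 0.99.

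Socs3 encodes an inhibitor of cytokine receptors that signal through JAK kinases and STAT transcription factors, and is itself a STAT target. The E13.5 mutants, at 6.89, 7.07 and 6.88, overlapped the controls, at 7.09, 7.19 and 7.03. The E14.5 values were 7.10, 7.18, 7.31, 7.22 and 7.20 in mutants and 6.90, 6.86, 6.88, 6.84 and 6.92 in controls, which did not. The effects were −0.16 ± 0.06 and 0.32 ± 0.05, or 1.25-fold at E14.5, and the stage difference was 0.48 ± 0.08 (limma adjusted p = 0.037). Its probe set is of a type that the platform marks as able to match other transcripts. The other probe sets gave stage differences of 0.29 and, below the floor on average, 0.45.

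Dubr is a long noncoding RNA. E13.5 mutants measured 5.08, 5.05 and 4.89 and controls 4.98, 5.25 and 5.00, with overlap. At E14.5 it measured 5.80, 5.92, 5.80, 5.91 and 5.81 in mutants and 5.35, 5.29, 5.20, 5.21 and 5.26 in controls, with a gap between the groups. The effects were −0.07 ± 0.07 and 0.59 ± 0.06 and the stage difference was 0.65 ± 0.09 (limma adjusted p = 0.015). The E14.5 effect was alike in the batches, at 0.54 and 0.62.

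Promoter sequences of 7 of the 11 genes matched the RefSeq table (GRCm38.p6), each running from 250 bases before to 50 bases after the start of the gene. They were searched on both strands for the AP-1 letters TGANTCA, the ETS letters CCGGAAGT and the STAT letters TTCNNNGAA, which 7.81%, 3.89% and 8.30% of 32851 promoters of that length hold. Socs3 and Dubr each held 1 STAT match, at −154 and −231 from the start, and none of the 7 held the AP-1 or ETS letters. These 2 promoters are shown 5′ to 3′ because their genes were the called genes with a match, which is in capitals.
Socs3 (chr11:117969317-117969616, minus strand): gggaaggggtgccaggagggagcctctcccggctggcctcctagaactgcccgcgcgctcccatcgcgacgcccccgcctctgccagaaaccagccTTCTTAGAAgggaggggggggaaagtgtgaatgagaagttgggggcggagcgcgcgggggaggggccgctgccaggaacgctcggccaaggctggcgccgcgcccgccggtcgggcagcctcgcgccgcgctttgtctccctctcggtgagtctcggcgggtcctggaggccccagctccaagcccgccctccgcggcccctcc
Dubr (chr16:50732724-50733023, minus strand): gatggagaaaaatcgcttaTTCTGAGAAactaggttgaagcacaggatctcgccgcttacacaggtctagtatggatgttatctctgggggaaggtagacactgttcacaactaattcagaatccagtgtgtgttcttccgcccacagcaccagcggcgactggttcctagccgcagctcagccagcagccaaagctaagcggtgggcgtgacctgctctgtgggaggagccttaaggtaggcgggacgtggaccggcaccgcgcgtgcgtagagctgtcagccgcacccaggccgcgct
A match of letters is a description of the sequence and does not show that a factor binds there.

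Tmem132c encodes a transmembrane protein. The E13.5 mutants, at 5.73, 5.75 and 5.62, touched the controls, at 5.75, 5.93 and 5.95. Its E14.5 values were 5.64, 5.72, 5.94, 5.92 and 5.89 in mutants and 5.42, 5.37, 5.46, 5.50 and 5.42 in controls, all mutants being higher. The batch 1 mutants were lower than those of batch 2, and the effect was 0.28 and 0.46 in the batches. The stage difference was 0.56 ± 0.08 (limma adjusted p = 0.015), from −0.18 ± 0.07 to 0.39 ± 0.05, and a second probe set gave 0.40.

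Depdc7 lay near the floor. E13.5 mutants measured 4.60, 4.56 and 4.54 and controls 4.75, 4.77 and 4.81. The E14.5 arrays gave 3.94, 4.08, 4.08, 3.87 and 4.10 in mutants and 3.40, 3.70, 3.65, 3.39 and 3.68 in controls. Genotypes were apart at both stages, in opposite order. The effects were −0.21 ± 0.09 and 0.45 ± 0.07, and the stage difference was 0.66 ± 0.11 (limma adjusted p = 0.041). It qualified only through the E14.5 mutants, whose mean was 4.01 against 3.57 in controls, so a difference there was a condition of its entry.

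Ankrd29, an ankyrin repeat gene, had the smallest p for the stage difference among the 8662 genes and stood apart at E13.5 only. Mutant values at E13.5 were 4.20, 4.20 and 4.11 against control values of 4.81, 4.83 and 4.81. At E14.5 the mutant values were 5.46, 5.48, 5.49, 5.58 and 5.59 and the control values 5.64, 5.68, 5.55, 5.59 and 5.66. E13.5 groups were far apart, and E14.5 groups overlapped. The level at E13.5 fell by 0.65 ± 0.05 on the log2 scale, to 0.637 of the control level, and the E14.5 effect of −0.10 ± 0.04 did not pass (adjusted p = 0.22). Its stage difference was 0.55 ± 0.07 (limma adjusted p = 0.0073), and a second probe set gave 0.40.

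Cwc22 encodes a splicing factor that helps load the exon junction complex. It measured 6.39, 6.50 and 6.30 in E13.5 mutants and 6.99, 7.09 and 7.02 in E13.5 controls. It measured 7.52, 7.49, 7.30, 7.37 and 7.24 in E14.5 mutants and 7.04, 7.42, 7.22, 7.33 and 7.41 in E14.5 controls. The E13.5 groups did not overlap, and the E14.5 groups did. The effects were −0.64 ± 0.10 and 0.10 ± 0.08, and the stage difference was 0.74 ± 0.12 (limma adjusted p = 0.037). The E14.5 effect was 0.27 in batch 1, where control 1 was the lowest array, and −0.02 in batch 2.

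Commd9, a COMM domain gene linked to endosomal transport, was the only called gene with a negative stage difference. The E13.5 mutants had 7.33, 7.28 and 7.21, and the controls 6.63, 6.75 and 6.64. Its E14.5 values were 7.15, 7.03, 7.38, 7.24 and 7.33 in mutants and 7.26, 6.93, 7.18, 7.29 and 7.23 in controls, intermingled. The effects were 0.60 ± 0.08 and 0.05 ± 0.06, and the stage difference was −0.56 ± 0.10 (limma adjusted p = 0.042). Its other probe sets did not show this, with stage differences of −0.10 and 0.35, and the one used is again of the type that can match other transcripts.

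Cxcl5, a chemokine that attracts neutrophils, passed at both stages. E13.5 mutants measured 5.22, 5.27 and 5.16 and controls 6.13, 6.22 and 6.16. At E14.5 it measured 4.60, 4.55, 4.68, 4.67 and 4.71 in mutants and 4.95, 5.12, 4.85, 4.76 and 4.82 in controls. All mutants were below all controls at both stages, and the gap was narrower at E14.5, most of all in batch 2. The effects were −0.95 ± 0.08 and −0.26 ± 0.06, which are 0.516 and 0.837 of the control level, and the stage difference was 0.70 ± 0.10 (limma adjusted p = 0.015). The E14.5 effect was −0.46 in batch 1 and −0.12 in batch 2.

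**Figure D2:**
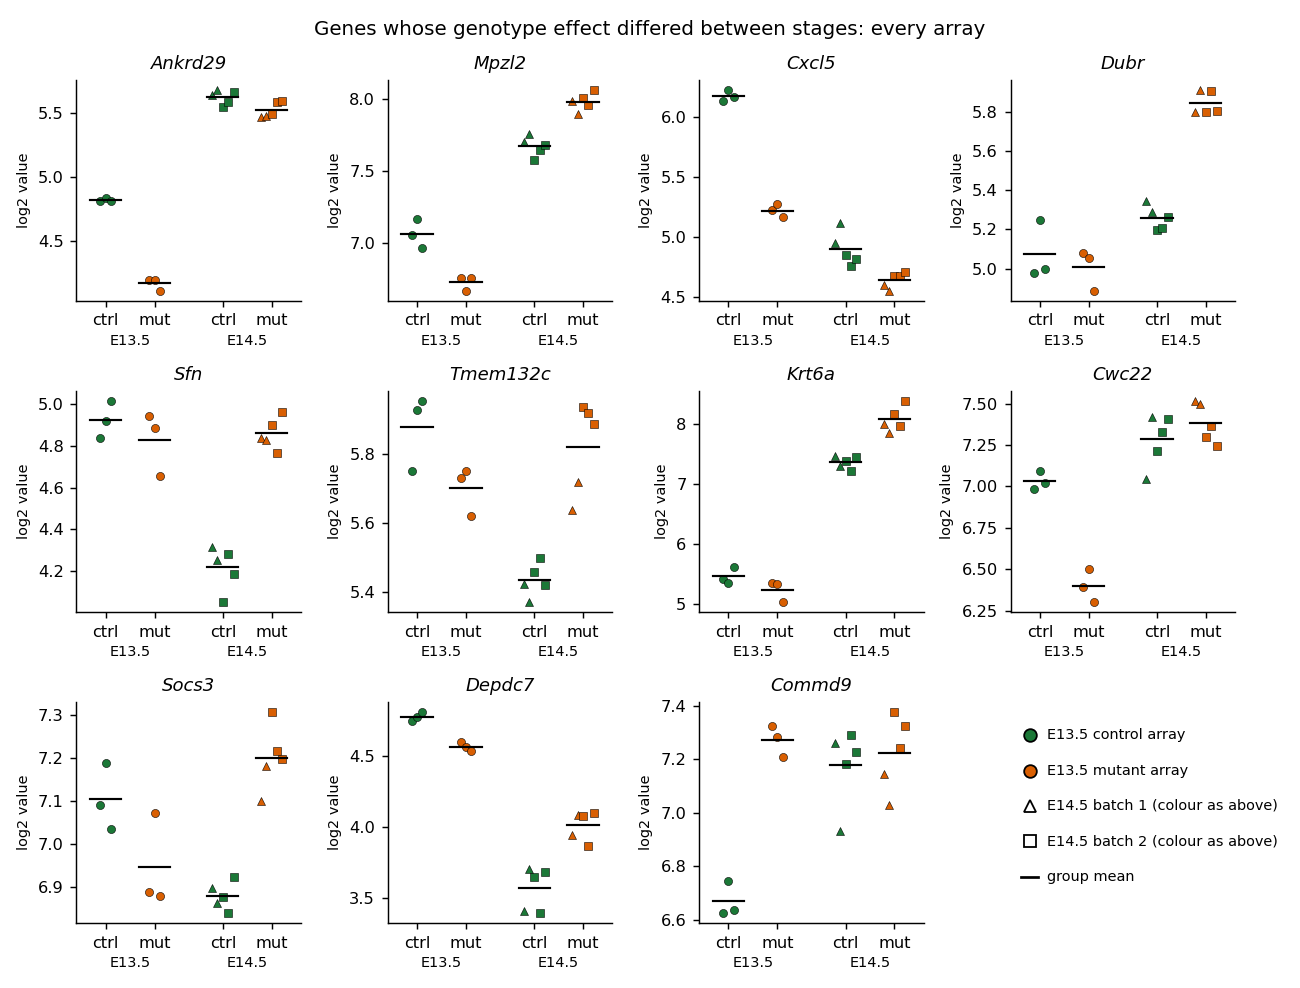
Log2 value of each array for the 11 genes whose stage difference passed, with 1 panel per gene and its own vertical axis. Circles are E13.5 arrays, triangles and squares are E14.5 arrays of batch 1 and batch 2, green marks controls and orange mutants, and black lines are group means. Krt6a, Sfn, Mpzl2, Dubr, Tmem132c, Depdc7 and Socs3 have all E14.5 mutants above all controls, whereas Ankrd29, Cwc22 and Commd9 are apart at E13.5 and overlap at E14.5.

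The calls rested on single arrays to unequal degrees. Refitting without E14.5 control 1 kept all 11, and without E14.5 control 5 Commd9 alone failed (adjusted p = 0.055). Without E14.5 control 2, Krt6a and Socs3 failed (both 0.059), and without E13.5 mutant 2, Commd9 (0.087) and Depdc7 (0.081) did. Omitting E14.5 mutant 4 lost Commd9 (0.075), Cwc22 (0.065) and Socs3 (0.065), and omitting mutant 5 lost Commd9 (0.072), Depdc7 (0.074) and Socs3 (0.061). Omitting E14.5 mutant 1 lost Commd9, Cwc22, Depdc7 and Krt6a (all 0.060), and omitting mutant 2 lost Commd9, Depdc7 and Socs3 (all 0.068) and Cwc22 (0.067). The same 5 genes, Commd9, Cwc22, Depdc7, Krt6a and Socs3, failed without E14.5 mutant 3 (0.063 to 0.076), E14.5 control 3 (0.056 to 0.062), E14.5 control 4 (0.056 to 0.082), E13.5 mutant 1 (0.059 to 0.10) or E13.5 control 1 (0.079 to 0.10).
The remaining 3 arrays weighed most. Without E13.5 control 2 (0.062 to 0.11) or E13.5 control 3 (0.060 to 0.13) only Ankrd29, Mpzl2 and Dubr passed, and without E13.5 mutant 3 (0.055 to 0.14) only Ankrd29 and Mpzl2 did. Ankrd29 and Mpzl2 thus passed in all 16 of these fits. The size of the stage difference moved less, for Krt6a from 0.84 to 1.00 and for Socs3 from 0.44 to 0.54.

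Irx5 and Slitrk4 were lower in mutants at both stages with no detectable change between them. Irx5 encodes an Iroquois homeobox transcription factor. It measured 6.86, 6.84 and 6.63 in E13.5 mutants against 7.34, 7.19 and 7.26 in controls, and 7.09, 7.15, 6.95, 7.15 and 7.06 in E14.5 mutants against 7.47, 7.33, 7.44, 7.43 and 7.63 in controls. Neither stage had overlap. The effects were −0.49 ± 0.08 and −0.38 ± 0.06, and the stage difference of 0.11 ± 0.10 had a 95% interval of −0.11 to 0.33 (limma adjusted p = 0.74).
Slitrk4 encodes a transmembrane protein known from neurons. Its values were 6.43, 6.34 and 6.28 in E13.5 mutants and 6.75, 6.86 and 6.75 in controls, and 4.94, 5.14, 4.88, 4.93 and 4.80 in E14.5 mutants and 5.37, 5.61, 5.44, 5.39 and 5.30 in controls. All mutants lay below all controls of their stage. The effects were −0.44 ± 0.07 and −0.48 ± 0.06, and the stage difference was −0.05 ± 0.09 with a 95% interval of −0.25 to 0.15 (limma adjusted p = 0.88).

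Of the other genes called at E13.5, Trim12c had an effect of −0.69 ± 0.10 there and −0.10 ± 0.08 at E14.5, Pm20d2, a dipeptidase gene, −0.51 ± 0.08 and −0.14 ± 0.06, and Slc26a7, an anion exchanger gene, 0.72 ± 0.12 and 0.05 ± 0.09. Their stage differences of 0.59 ± 0.12, 0.37 ± 0.10 and −0.67 ± 0.15 did not pass (limma adjusted p = 0.088, 0.23 and 0.13). So passing at E13.5 and missing the threshold at E14.5 was not, for these 3, a called difference between stages. The same held at E14.5 for Hspb8, a small heat shock protein gene, Hbegf, an EGF receptor ligand gene, and Tnfrsf12a, the receptor gene for TWEAK, which were among the 5 smallest E14.5 p-values. Hspb8 had effects of 0.00 ± 0.11 and 0.79 ± 0.09 (stage difference adjusted p = 0.056), Hbegf 0.06 ± 0.10 and 0.72 ± 0.08 (0.067), and Tnfrsf12a 0.14 ± 0.10 and 0.63 ± 0.08 (0.15). Hbegf entered through the E14.5 mutants alone, with a mean of 4.46 against 3.74 in controls. The Tnfrsf12a probe set, like that of Socs3, is of the type that can match other transcripts.

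Most of the largest stage differences were not called. Among genes with an unadjusted p under 0.01, the 10 most positive ran from 0.79 for Hspb8 to 1.06 for Frg1, and Krt6a was the only one of them called. They included the epithelial genes Krt17 (0.90 ± 0.29), Bnc1, a keratinocyte transcription factor gene (0.91 ± 0.24), and Gjb2, the connexin 26 gene (0.87 ± 0.23). Macc1 (0.90 ± 0.17), Acpp (0.80 ± 0.18), Serhl (1.00 ± 0.20) and Has3, a hyaluronan synthase gene (0.95 ± 0.32), completed them. Bnc1 (E14.5 means of 4.83 in mutants and 3.77 in controls), Acpp (4.10 and 3.51) and Has3 (4.22 and 3.54) reached the floor at E14.5 only through the mutants, so a higher mutant value there was a condition of their entry. For Frg1, E13.5 mutants were split, with 6.99 and 6.95 in replicates 1 and 2 and 7.88 in replicate 3, against 7.84, 7.90 and 7.88 in controls.
The 10 most negative ran from −0.44 for Pf4 to −0.999 for Hapln1, with Commd9 the only one called. Hapln1 encodes the link protein that ties aggrecan to hyaluronan. It measured 5.92, 6.44 and 6.27 in E13.5 mutants and 5.52, 6.16 and 5.73 in controls, and 5.57, 6.11, 5.64, 5.84 and 5.39 in E14.5 mutants and 6.32, 6.49, 6.35, 6.16 and 6.21 in controls. Genotypes overlapped at E13.5, and E14.5 mutants were all below the controls. The effects were 0.40 ± 0.18 and −0.59 ± 0.14 (stage difference adjusted p = 0.12). The rest were Slc26a7, Kcne4, a potassium channel subunit gene (−0.67 ± 0.15), Ptx3, a pentraxin gene (−0.67 ± 0.15), Cthrc1 (−0.65 ± 0.19), Prcp (−0.50 ± 0.15), F13a1, a coagulation factor gene also found in macrophages (−0.50 ± 0.14), and Pdia5, a disulfide isomerase gene (−0.45 ± 0.09).

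**Figure D3:**
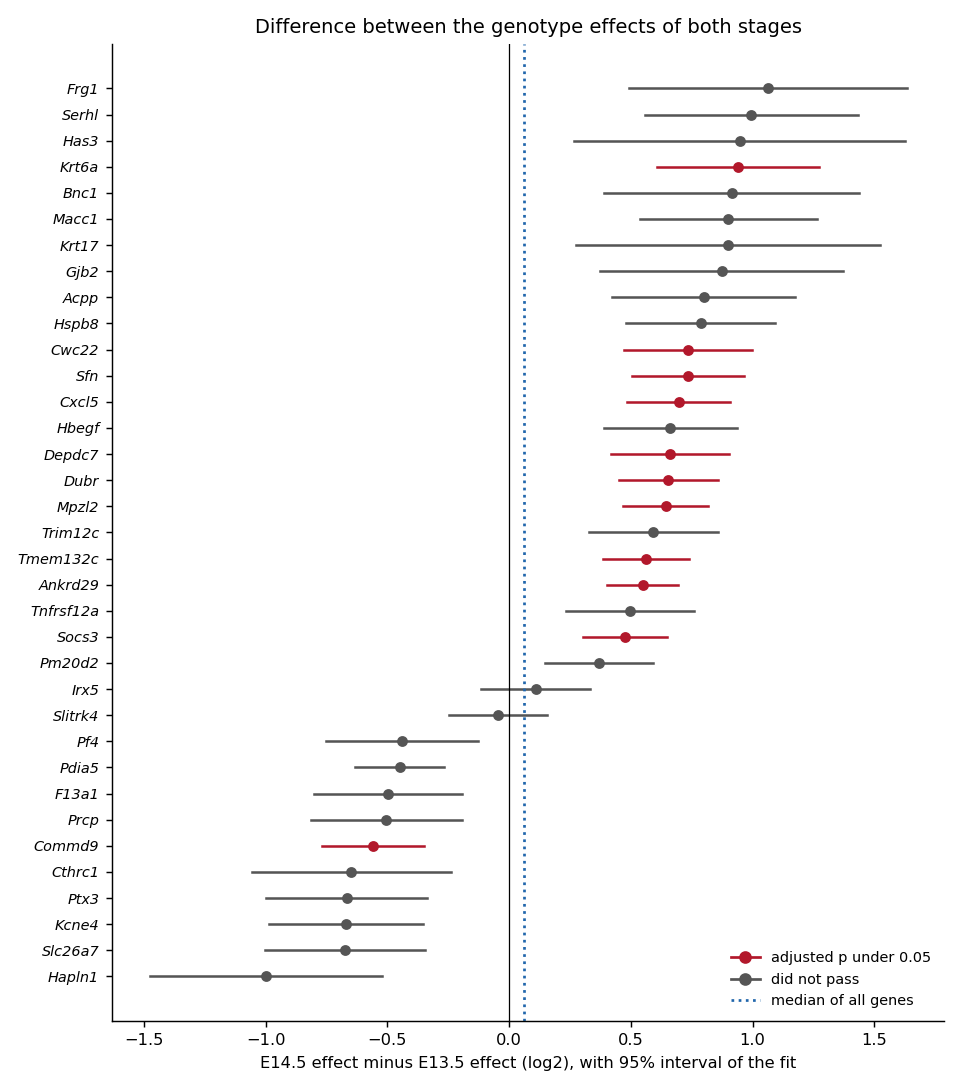
Stage difference (E14.5 effect minus E13.5 effect, log2) of 35 genes with the 95% interval of the fit. Red marks genes with an adjusted p under 0.05, grey those that did not pass, and the dotted line is the median of all genes at 0.06. Frg1, Has3 and Krt17 have the widest intervals among the positive genes, and the intervals of Irx5 and Slitrk4 span 0.

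Epithelial genes formed the group with the most positive stage differences among the lists of 6 or more genes. All 17 genes of a stratified epithelium list had a stage difference above 0, with a median of 0.65, and 13 reached an unadjusted p under 0.05, against 8.42% of all genes. Like the other lists, it was written with earlier results of these data known, so its counts are a description and not independent support. Of the 17 genes Krt6a and Sfn were called. The list's median effect was −0.09 at E13.5, where none passed, and 0.62 at E14.5, where 9 passed, all higher in mutants. Krt14, the basal keratin, measured 8.03, 7.95 and 7.96 in E13.5 mutants and 7.70, 7.87 and 8.24 in controls, and 9.32, 9.28, 9.35, 9.21 and 9.56 in E14.5 mutants and 8.77, 8.66, 8.70, 8.82 and 8.66 in controls. Its genotypes overlapped at E13.5 and were apart at E14.5, with a stage difference of 0.57 ± 0.14 (limma adjusted p = 0.15). The Krt14 probe set, like that of Socs3, is of the type that can match other transcripts.
A list of simple epithelium and junction genes was alike, with 18 of 18 above 0, a median of 0.40, 14 at an unadjusted p under 0.05 and none called. Krt18 had effects of −0.04 ± 0.08 and 0.49 ± 0.06, Krt7 −0.07 ± 0.09 and 0.50 ± 0.07, the protease inhibitor gene Spint1 −0.12 ± 0.10 and 0.51 ± 0.08, and the desmosomal plakophilin gene Pkp3 −0.15 ± 0.15 and 0.63 ± 0.12. At E14.5 9 of the 18 passed, all higher. Of these lists Bnc1, Hbegf and Pkp3 (E14.5 means of 4.41 in mutants and 3.79 in controls) entered only through the E14.5 mutants, so their direction there adds nothing to the counts. Over the genes with a mean of at least 4 in all 4 groups, 15 of 15 and 17 of 17 were above 0, with medians of 0.58 and 0.39, and 11 and 13 reached an unadjusted p under 0.05.

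These transcripts mark a cell type that the tissue label does not name. The mean log2 level of the 17 stratified genes was 6.38 to 6.53 in E13.5 mutants and 6.41 to 6.76 in controls, and 6.95 to 7.26 in E14.5 mutants and 6.39 to 6.67 in controls. For the 18 simple epithelial genes it was 6.80 to 6.89 and 6.87 to 6.99 at E13.5, and 6.89 to 7.15 and 6.58 to 6.74 at E14.5. Each list overlapped between genotypes at E13.5 and was fully apart at E14.5. These means include Bnc1 and Hbegf in the first list and Pkp3 in the second. A higher E14.5 mutant value was a condition of entry for these genes, and the means were not taken without them. In bulk RNA, a higher share of a cell type and more RNA per cell cannot be told apart. The part of epithelial cells in the results for Krt6a, Sfn and Mpzl2 was not tested. Across the 35 alternative settings the medians stayed above 0, from 0.50 to 0.72 for the stratified and from 0.34 to 0.45 for the simple list, and within each E14.5 batch alone they were 0.64 and 0.71, and 0.35 and 0.39.

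Transcripts that report ERK signalling were above 0 in mutants for 12 of 15 genes at E14.5, where 56.4% of all genes were. In the list of ERK targets and feedback inhibitors, 14 of 15 stage differences were above 0, with a median of 0.27. Of them 8 reached an unadjusted p under 0.05, all positive, against 8.42% of all genes, though none was called. The median effect was −0.05 at E13.5 and 0.20 at E14.5, where 4 genes passed, all higher in mutants. At E13.5 12 of the 15 genes were below 0, where 71.7% of all genes were. The E13.5 list means were 7.15 to 7.24 in mutants, just below the 7.25 to 7.29 in controls. At E14.5 they were 6.91 to 7.02 in mutants, above the 6.65 to 6.80 in controls. Ier3, an immediate early gene, measured 5.31, 5.19 and 5.00 in E13.5 mutants and 5.27, 5.25 and 5.38 in controls, and 6.79, 6.80, 6.75, 6.57 and 7.03 in E14.5 mutants and 6.39, 6.12, 6.24, 6.22 and 6.22 in controls. Its E14.5 groups were apart, and the stage difference was 0.68 ± 0.13 (limma adjusted p = 0.067).
Egr1, a transcription factor gene induced by ERK, was below every control in all E13.5 mutants, at 6.66, 6.09 and 6.46 against 6.66, 6.85 and 6.96, by a narrow margin in replicate 1. The E14.5 mutants had 6.42, 6.80, 6.55, 6.72 and 6.67, and the controls 6.33, 6.44, 6.02, 6.32 and 6.33, which overlapped slightly. Its effects were −0.42 ± 0.14 and 0.34 ± 0.11, with a stage difference of 0.77 ± 0.18 (limma adjusted p = 0.13). The feedback inhibitor gene Spred2 had effects of −0.09 ± 0.07 and 0.20 ± 0.05, and the AP-1 gene Fosl2 −0.37 ± 0.09 and −0.01 ± 0.07. Over the 35 alternatives the list median ranged from 0.11, with all probe sets of a gene averaged, to 0.32.

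A list of immediate early and heat shock genes, which respond to handling of tissue as well as to signals, moved with them. Of 19 genes 14 were above 0, with a median of 0.23, 10 reached an unadjusted p under 0.05, and Socs3 was called. The median effect was −0.05 at E13.5 and 0.21 at E14.5, where 6 passed, all higher. Its mean level was 7.26 to 7.31 in E13.5 mutants and 7.31 to 7.34 in controls, and 7.09 to 7.17 and 6.86 to 7.02 at E14.5. Dusp1, a phosphatase of MAP kinases, had effects of −0.04 ± 0.08 and 0.35 ± 0.06. The lists share Egr1 and Fos. The part of handling in the higher ERK reporter transcripts was not tested.

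In other lists of the cytokine and growth factor pathways Socs3 was the only gene called. Of 9 genes of the gp130 and STAT3 pathway, 8 were above 0 with a median of 0.11, and beside Socs3 only Socs2 reached an unadjusted p under 0.05, at 0.27 ± 0.11. Of 11 FGF, PDGF and EGF signalling genes 8 were above 0, with a median of 0.16 and 3 at an unadjusted p under 0.05. These were Hbegf, which entered only through the E14.5 mutants, and the receptor genes Egfr, with effects of −0.25 ± 0.12 and 0.13 ± 0.10, and Erbb2, with −0.17 ± 0.08 and 0.07 ± 0.06. The cascade itself, 13 RAS, RAF and MEK genes, had a median of 0.08 with 10 above 0, near that of all genes and just below 0 with all probe sets averaged, and Nras alone reached an unadjusted p under 0.05, at 0.17 ± 0.08.

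**Figure D4:**
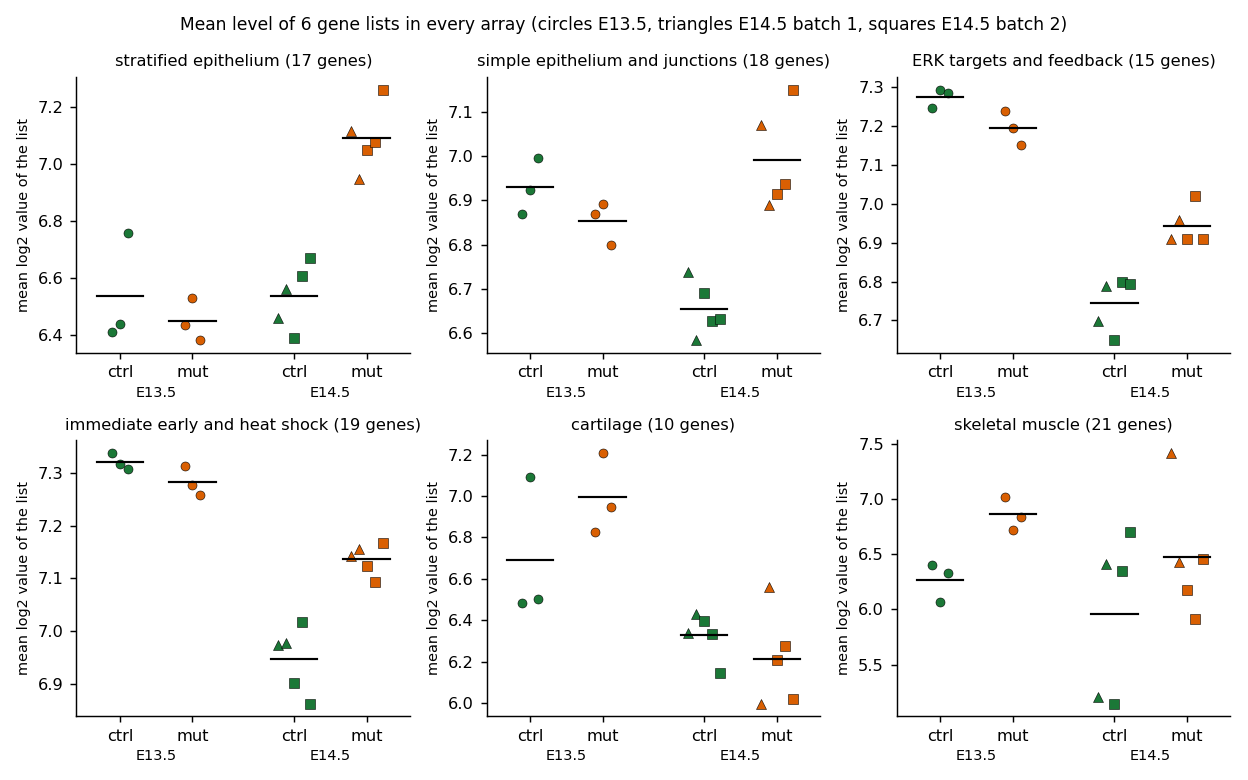
Mean log2 level of 6 gene lists in each array, with circles for E13.5, triangles and squares for E14.5 batches 1 and 2, green for controls, orange for mutants and black lines for group means; levels are comparable only within a stage. At E14.5 all mutants lie above all controls in the epithelial, ERK target and immediate early lists, while the cartilage and muscle lists overlap. The epithelial and muscle lists include genes that reached the floor at a stage only through the mutants.

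Cartilage genes had the most negative stage differences among lists of 6 or more genes. Of 10 genes 8 were below 0, with a median of −0.58, 3 reached an unadjusted p under 0.05 (2 of them negative) and none was called. The median effect was 0.35 at E13.5 and −0.09 at E14.5. Only 9 of the 10 genes had a mean of at least 4 in all 4 groups. Of these 9, 7 had a stage difference below 0, with a median of −0.57. Matn4, a matrilin gene, had effects of 0.56 ± 0.17 and −0.03 ± 0.13, and Trps1, a transcription factor gene, ran the other way with −0.23 ± 0.11 and 0.16 ± 0.09. The mean level of the list was 6.83, 7.21 and 6.95 in E13.5 mutants and 6.48, 7.09 and 6.50 in controls, so that control 2 lay among the mutants. At E14.5 it was 6.00, 6.56, 6.21, 6.28 and 6.02 in mutants and 6.34, 6.43, 6.40, 6.33 and 6.15 in controls, with overlap. The list median was below 0 in all 35 alternatives, from −0.80 to −0.12.

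Bone genes lay mostly below 0 in mutants at both stages, and their stage differences went both ways. Of 10 bone matrix and mineralization genes 9 were below 0 at E13.5 and 10 at E14.5, with median effects of −0.30 and −0.38, and 4 passed at E14.5, all lower. Their stage differences ran from −0.60 to 0.89 with a median of −0.06, and 2 genes were at an unadjusted p under 0.05: Col13a1, a membrane collagen gene, with −0.60 ± 0.21, and Sparc, the osteonectin gene, with −0.23 ± 0.08. Only 9 of these 10 genes had a mean of at least 4 in all 4 groups, with a median stage difference of −0.06. The direction of the other, where a group lay below 4, was a condition of its entry. Among 10 osteoblast regulators the median effects were −0.21 and −0.34, 4 passed at E14.5, and the stage differences ran from −0.36 to 0.63 with a median of −0.13, none at an unadjusted p under 0.05. Creb3l1, a transcription factor gene for collagen secretion, had effects of −0.27 ± 0.15 and −0.63 ± 0.12. In E14.5 batch 1 alone both median stage differences turned to 0.08 and 0.07.

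Skeletal muscle genes were above 0 in mutants at both stages, against 28.3% and 56.4% of all genes. All 21 were above 0 each time, but none passed. Their median effects were 0.62 at E13.5 and 0.49 at E14.5, and 7 of 21 stage differences were above 0, with a median of −0.05. Of the 21, 16 had a mean of at least 4 in all 4 groups. Over these 16 genes, 4 stage differences were above 0, with a median of −0.07. The other genes reached the floor at a stage only through the mutants, so their direction there adds nothing to the counts. Muscle transcript levels varied widely between E14.5 arrays. The list mean was 7.41, 6.43, 6.17, 5.92 and 6.46 in mutants and 5.21, 6.41, 5.15, 6.34 and 6.70 in controls, so that controls 1 and 3 were lowest and mutant 1 highest. The median stage difference was 0.57 with batch 1 alone, −0.49 with batch 2 alone, −0.62 without controls 1 and 3, and −0.24 after quantile normalization, so its direction was not settled.

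Of the remaining cell types, 12 of 12 blood vessel endothelial genes had a stage difference below 0, with a median of −0.15 and none at an unadjusted p under 0.05. Among 13 lymphatic and macrophage genes 7 were below 0 with a median of −0.08, which turned to 0.01 in 1 of 35 alternatives, and 4 reached an unadjusted p under 0.05, all negative: F13a1, Fcer1g (−0.32 ± 0.10), Adgre1 (−0.33 ± 0.14) and Csf1r (−0.22 ± 0.09). None was called. Of 8 neuronal genes 5 were above 0 with a median of 0.07, or −0.16 after quantile normalization, and the lists of erythroid cells, Schwann cells, tooth germ and ciliated cells had 4, 3, 1 and 1 genes. Only 5 of the neuronal genes had a mean of at least 4 in all 4 groups, 3 of them above 0, with a median of 0.03.

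Mesenchymal regulators as a group did not stand apart from all genes. Of 31 palatal mesenchyme transcription factor genes 23 were above 0, with a median of 0.07. At an unadjusted p under 0.05 were Osr2, a regulator of palatal shelf growth, with effects of −0.32 ± 0.09 and 0.17 ± 0.07, Prrx2, with −0.20 ± 0.05 and −0.03 ± 0.04, and Foxc1, with 0.28 ± 0.13 and −0.15 ± 0.10. Of 29 mesenchymal and fibrillar matrix genes 17 were above 0, with a median of 0.04, or −0.07 in batch 1 alone, and 5 reached an unadjusted p under 0.05. Lox, which crosslinks collagen, had effects of 0.16 ± 0.05 and −0.17 ± 0.04, with no overlap between genotypes at either stage, and a stage difference of −0.33 ± 0.07 (limma adjusted p = 0.078). Ogn (−0.31 ± 0.10) and Bgn (−0.23 ± 0.07), both small proteoglycan genes, were also negative, and Has2, the main hyaluronan synthase gene of mesenchyme, was positive (0.33 ± 0.13).

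Among signalling lists the median stage difference was 0.06 for 17 BMP and TGF-beta genes, 0.08 for 11 Hedgehog genes and 0.16 for 20 Wnt and R-spondin genes, with no call. Examples at an unadjusted p under 0.05 were Smad7 (0.19 ± 0.08), Bmp5 (−0.43 ± 0.20), Shh, the epithelial ligand (0.36 ± 0.13), the Wnt target Axin2 (0.32 ± 0.12) and Sostdc1, a BMP and Wnt antagonist (0.48 ± 0.20). Interferon-inducible genes had 4 of 6 above 0, a median of 0.27 and 4 at an unadjusted p under 0.05, of which Ifitm3 (0.31 ± 0.07) had the smallest p.

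The series set out to examine cell metabolism, and most metabolic genes leaned the same way as all genes. The median stage difference was 0.10 for 16 cholesterol synthesis genes (14 above 0), 0.09 for 18 fatty acid and triglyceride synthesis genes (16 above 0), 0.07 for 18 glycolysis genes (15 above 0), 0.09 for 17 serine, one-carbon and ATF4 genes (13 above 0), 0.03 for 26 TCA cycle genes (17 above 0) and 0.03 for 55 oxidative phosphorylation genes (41 above 0). The TCA cycle median turned to −0.01 after quantile normalization and that of oxidative phosphorylation to −0.02 in batch 2 alone. None of these genes was called for the stage difference. Of the oxidative phosphorylation genes, 54 had a mean of at least 4 in all 4 groups, 40 of them above 0. An unadjusted p under 0.05 was reached by 4 cholesterol, 2 fatty acid, 2 glycolysis, 3 serine, 1 TCA cycle and 1 oxidative phosphorylation genes. All were positive, and 8.42% of all genes were at this level on that side. The sterol synthesis genes were below 0 at E13.5 in 16 of 16 cases, with a median of −0.12, and had a median of 0.00 at E14.5. The fatty acid and glycolysis lists were below 0 at E13.5 in 17 of 18 cases each, with medians of −0.12 and −0.09, where 71.7% of all genes were below 0 with a median of −0.05. Hmgcs1, an early enzyme of that pathway, had effects of −0.19 ± 0.05 and 0.05 ± 0.04, Srebf2, its transcriptional regulator, −0.15 ± 0.10 and 0.25 ± 0.07, and Fasn, the fatty acid synthase gene, −0.31 ± 0.10 and 0.07 ± 0.08. Aldoc, a glycolytic aldolase gene, had a stage difference of 0.64 ± 0.17, and Slc2a1, a glucose transporter gene, 0.23 ± 0.08. Of 27 cell cycle genes 22 were above 0 with a median of 0.07, and of 12 p53 targets 10 were, also with a median of 0.07, led by Perp (0.33 ± 0.10), which is also a desmosome component of epithelia.

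**Figure D5:**
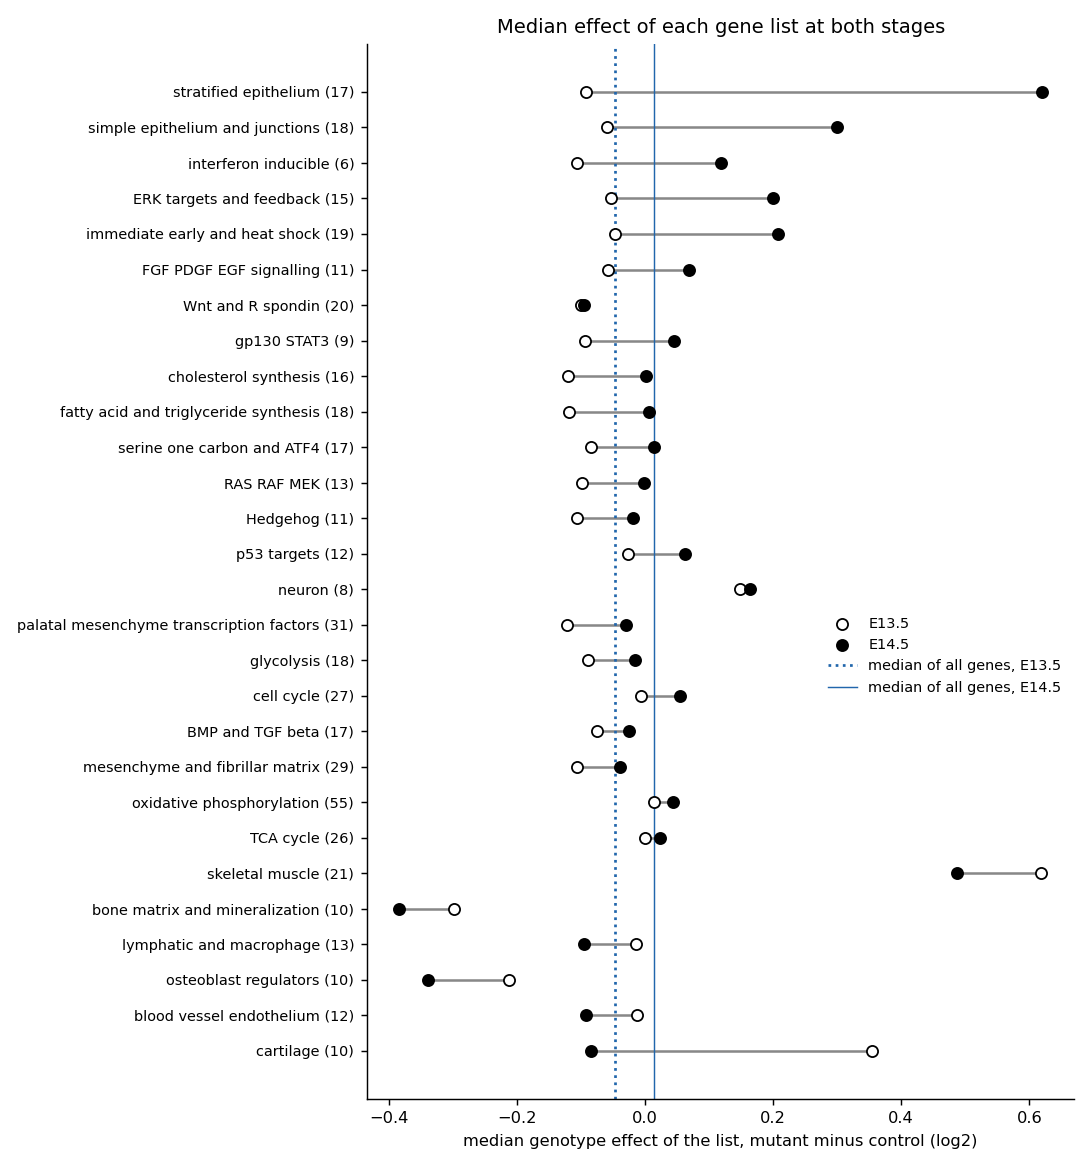
Median genotype effect (mutant minus control, log2) of each gene list with 6 or more genes, open circles at E13.5 and filled circles at E14.5, with the number of genes in parentheses; blue lines mark the medians of all genes. The longest shifts are the epithelial lists to the right and cartilage to the left, muscle and bone keep their sides, and metabolic lists lie near the lines.

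The floor shaped which genes could be compared. It left out 2326 genes that reached log2 4 only at E13.5 and 91 that did so only at E14.5. The floor lay nearer the array medians at E13.5 (3.39 to 3.44) than at E14.5 (1.63 to 1.66). These counts therefore do not compare how many genes each stage expressed. Of the 8662 genes, 21 had a genotype group below 4 at E13.5 and 158 at E14.5. Just inside it were Mid1 (4.0007, stage difference 0.48), Cstf1 (4.0010, −0.08) and Ccdc89 (4.0017, 0.53), and just outside Adar (3.9995, −0.11), Numbl (3.9987, 0.19) and Ttc7b (3.9984, −0.22).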

How the data were processed

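Per the submitters' processing notes, the authors made the deposited log2 expression values with GCRMA, with a version and settings not given in the sources used here. Each of the 16 arrays held 45101 probe sets. The platform annotation gave 1 gene to 34958 of them, several to 932 and none to 9211. For a gene with several probe sets, the brightest on average over the 16 arrays was used. Genes with at least 3 arrays at log2 4 or more were tested (11116), and the 8662 reported genes reached a mean of 4 in a genotype group of each stage. Values were fitted as deposited with limma 3.58.1 in R 4.3.3 (lmFit, eBayes): 4 group means and batch within E14.5, with Benjamini-Hochberg adjustment over the 11116 genes, so the groups shared 1 estimate of spread per gene (11 residual and 3.28 prior degrees of freedom). Residual SDs were 0.0758 at E13.5 and 0.102 at E14.5. Errors are moderated standard errors. The number of arrays limits the precision.

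The genes, the 34 gene lists and the tests were chosen with earlier results of these data known. Named genes were all called for the difference or at E13.5 or at both stages, the 10 most positive and 10 most negative with an unadjusted p under 0.01, the 5 smallest E14.5 p-values, and up to 4 genes per list with the smallest p. The targeted gene, also in the rule, is not reported here. The fits were tested on simulated data. Alternatives covered filters, probe sets, scaling, weights, batch, replicate block, sex, actin signal and each array left out. Figures used Python 3.11.15 and matplotlib 3.10.9.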

Additional observations from a re-analysis of the deposited data

Results flagged for a closer look

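The stage difference itself passed for 11 genes, described above: Krt6a (0.94), Sfn (0.74), Cwc22 (0.74), Cxcl5 (0.70), Depdc7 (0.66), Dubr (0.65), Mpzl2 (0.64), Tmem132c (0.56), Ankrd29 (0.55), Socs3 (0.48) and Commd9 (−0.56). Among named genes and list means, single E14.5 arrays stood far from the other 4 of their group in 9 of 264 groups checked, and chance gives about 1 in 20. Frg1 was 8.12 in mutant 5, below 8.55 to 8.70 in the others. Spint1 was 4.88 in control 5, above 4.54 to 4.62. Mutant 1 had the highest Ttn, 7.36 against 6.48 to 6.64. In mutant 3 Sostdc1 was 8.90 against 9.21 to 9.30, and Ogdh was 5.88 against 5.76 to 5.79. Slc3a2 was 6.60 in mutant 4 against 6.34 to 6.39. Perp was 9.49 in mutant 5 against 9.18 to 9.23. The mean of the bone matrix list was 8.58 in mutant 2 against 8.11 to 8.23, and that of the RAS, RAF and MEK list was 7.26 in mutant 4 against 7.20 to 7.21.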

How the results depend on the processing

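None of the 11 called genes reversed direction in any alternative that gave a value for it (33 to 35 of 35). Over all named genes, 3108 values counted as the same. For called genes this meant the same direction and call. For the others it meant the same direction, no call and a shift within the standard error. In the rest, 114 fell short of the threshold, 74 newly passed in the same direction, and 69 changed direction or moved further. The 11 calls for the stage difference became 19 when only the 8662 genes were fitted and adjusted, 6 with a mean of at least 6 in all groups, 7 with all probe sets of a gene averaged, 23 with arrays centred, 32 with array weights, 23 with a weight per stage, 17 without E14.5 controls 1 and 3, and 6 with the actin term. Within E14.5 batch 1 alone there were 3, none of them among the 11, and within batch 2 alone 17, of which 9 were. The replicate block left 2, with 1 shared. Replicate numbers did not pair the samples (residual r from −0.47 to 0.15, over 0.1 in 1 of 8 pairs). Leaving out 1 array gave 3 to 19: 3 without E13.5 mutant 3, control 2 or control 3, 6 without E14.5 control 4, 7 without E13.5 mutant 1 or E14.5 mutant 3, and 19 without E14.5 control 1.

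The 9 calls at E13.5 became 15 with arrays centred, 15 with quantile normalization, 18 with the stages rescaled, 56 with array weights, 21 with a weight per stage, 14 without the batch term, 2 with batch 1 alone, 4 with the replicate block and 4 with the actin term. Leaving out 1 array gave 3 to 29: 29 without E13.5 mutant 2, 3 without mutant 3, and 4 without mutant 1, control 1 or control 3. The 232 calls at E14.5 became 125 without a filter, 131 with a mean of at least 6, 100 with quantile normalization, 110 with the stages rescaled, 120 with array weights, 101 with a weight per stage, 20 and 100 with batch 1 or 2 alone, 82 with the replicate block and 107 with a sex term. Leaving out 1 array gave 80 to 210: 80, 150 and 97 without E14.5 mutants 1, 4 and 5, 110 and 120 without controls 2 and 3, and 151 without E13.5 control 1 or control 2. The cause was not tested. Without any 1 array, Ankrd29 and Mpzl2 kept their calls. In the other settings Ankrd29 lost its call with probe sets averaged (adjusted p = 0.060), batch 1 alone (0.094) and the replicate block (0.075). Mpzl2 lost it in the same settings (0.32, 0.12 and 0.082). Counting every setting, calls were lost in 22 of 35 for Commd9, 21 of 35 for Socs3, 19 of 33 for Depdc7, 15 of 35 for Cwc22, 13 of 34 for Krt6a, 5 of 34 each for Cxcl5, Sfn and Tmem132c, and 3 of 34 for Dubr. Socs3 also failed with quantile normalization (0.077), averaged probe sets (0.15) and no filter (0.060).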

Other observations

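Outside the rule for named genes, 4 genes were picked after their values were seen because an effect exceeded 1.5 on the log2 scale: Tmem87a, Wdfy1, S100a8 and Xist. The first 2 split the E14.5 arrays without following genotype alone. Tmem87a was 6.40 to 6.56 in E13.5 mutants and 6.49 to 6.55 in controls. At E14.5 it was 5.99 to 6.66 in mutants, whereas controls 2 and 3 had 6.28 and 6.31 and controls 1, 4 and 5 had 3.39, 2.79 and 2.33. Wdfy1 was 6.72 to 6.83 in E13.5 mutants and 6.76 to 6.95 in controls. At E14.5 all mutants had 4.30 to 4.69, controls 1 and 4 had 4.94 and 4.70, and controls 2, 3 and 5 had 7.06, 6.69 and 6.84. Their stage differences were 2.24 ± 1.07 and −1.45 ± 0.63 and did not pass (limma adjusted p = 0.48 and 0.45). S100a8, a neutrophil gene, was 5.21 and 5.48 in E13.5 controls 1 and 2, while control 3 lay within the range of the mutants. At E14.5 it was 3.49 to 5.62 in mutants and 4.61 to 5.22 in controls other than control 4, which had 8.14. It had effects of −1.84 at E13.5 and −1.11 at E14.5 and a stage difference of 0.72 ± 1.09 (limma adjusted p = 0.83). All E13.5 mutants lay below log2 4, so S100a8 reached the floor at E13.5 only through the controls. A lower mutant value there was a condition of its entry, which limits its E13.5 effect and its stage difference. Xist, which is expressed in females, was high in all 6 E13.5 arrays and in 3 of 5 mutants and 1 of 5 controls at E14.5.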
